A study of Homo sapiens with 6 samples.

Results

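The transcripts described here are those that differed when an inhibitor of ALK5 was given to SAS cells whose CYLD had been knocked down. SAS is an established cell line from a human oral squamous cell carcinoma. Arrays were chosen by their titles: 1 array of siCYLD cells with the inhibitor was set against 2 arrays of siCYLD cells without it, which makes 3 of the 6 arrays of the series. The other 3 arrays, 2 of cells with a control siRNA (siCtrl) and 1 of siCtrl cells with the inhibitor, served as reference levels and in the tests named below. All cells were transfected with siCtrl or siCYLD, grown for 2 days and then held in serum-free medium for 48 h, with the inhibitor or with DMSO alone. Cells with DMSO are called untreated. The labels name the target of the inhibitor but not the compound or its dose, and the titles tell of no further CYLD siRNA and no rescue.

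The design sets limits on every value. The inhibitor side is a lone array, so its spread could not be measured and was taken to be that of the untreated duplicates. Nothing in the labels says that duplicates came from separate cultures, so a p-value here measures no more than how far these arrays scattered, and that scatter may be technical. For the array titled siCYLD replicate 1 the source name gives the control siRNA, and for the array titled siCtrl replicate 2 it gives the CYLD siRNA. Each untreated group by source name would thus mix an array titled siCYLD with an array titled siCtrl. Groups followed the titles. When the groups followed the source names, limma called 0 genes for the inhibitor in siCYLD cells (1399 at an unadjusted p under 0.05), 0 for the interaction described further on (502) and 0 for siCYLD cells with inhibitor against untreated siCtrl cells (1451). CYLD itself, the deubiquitinase targeted by the siRNA, had signals of 411 and 499.5 in untreated siCtrl cells, 349 in siCtrl cells with inhibitor, 278 and 230 in untreated siCYLD cells and 176 in siCYLD cells with inhibitor. All 3 arrays titled siCYLD lay below all 3 titled siCtrl, and the inhibitor difference of CYLD in siCYLD cells was not called (-0.49 ± 0.22, adjusted p = 0.134). Another kept probe set of CYLD showed a wider gap, with 485 and 550 in untreated siCtrl cells and 77.2 and 125 in untreated siCYLD cells. Over the 4 kept CYLD probe sets the inhibitor difference in siCYLD cells ran from -0.49 to -0.01.

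ALK5 is the type I receptor through which TGF-β acts, and it forms an active complex with the type II receptor TGFBR2. It phosphorylates SMAD2 and SMAD3, which enter the nucleus with SMAD4 and act on target genes, among them inhibitors of the pathway itself such as SMAD7 and PMEPA1. In epithelial cells TGF-β is known both for arresting the cell cycle and for inducing matrix and mesenchymal genes.

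Values are MAS5 signals in arbitrary units on a scale common to the 6 arrays. Differences are of log2(signal + 16.06), given with their standard error as siCYLD with inhibitor minus the mean of untreated siCYLD, and folds stand on the same scale, which understates those of genes near the floor. A gene rose or fell where its adjusted p was below 0.05 in limma with Benjamini-Hochberg adjustment over 12935 genes. On these terms 2900 genes, 22.4% of those tested, differed with the inhibitor in siCYLD cells: 1578 (12.2%) rose and 1322 (10.2%) fell, and the median difference over all genes was 0.02. At least a doubling was seen for 443 of the genes that rose, and at least a halving for 298 of those that fell. Each count of rises and falls in a gene list below is to be read beside the shares of 12.2% and 10.2%. The lists and their members were chosen with earlier results of these data known, so these counts describe the lists and test nothing. The signal of the lone siCYLD array with inhibitor lay above both untreated siCYLD arrays for 43% of all genes and below both for 40.6%. Of the genes tested, 309 passed the filter on low signals only through the inhibitor array of siCYLD cells (12 of them rose) and 226 only through untreated siCYLD cells (32 fell). A called gene of this kind had to differ in that direction. Among the genes below these are CCL20 and CCL22, and on the other side SCG5, C1S, MSC-AS1, FAP, CRCT1, SPRR1A, PTGS2 and ANGPTL4. None of the replication or mitosis genes is one. Without the intensity trend in the moderation 1055 genes were called (1819 with no filter), and among the genes below the calls of TGFBR2, NEDD4L, SMURF1, CDC45, VCAN, LTB, KLF5, DSP, DSG3, CLDN1, CLDN4, DUSP6, INSIG1 and CDH5 were lost.

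Fibronectin fell the furthest. FN1, which encodes this matrix glycoprotein, read 20870 and 20240 in untreated siCYLD cells and 558 with the inhibitor, beside 226 and 177 in untreated siCtrl cells and 137 in siCtrl cells with inhibitor. The siCYLD array with inhibitor was thus far below both untreated siCYLD arrays, yet above each of the 3 siCtrl arrays. FN1 fell 35.8-fold (-5.16 ± 0.16, adjusted p = 1.37e-09, limma), and its 6 kept probe sets shared the direction. With probe sets ending in _x_at or _s_at left out, another FN1 probe set stood for the gene and gave -1.74.

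The other genes with the largest falls held secreted proteins, a feedback inhibitor and noncoding transcripts. CST6, which encodes cystatin E/M, an inhibitor of cysteine proteases, read 4904 and 4859 untreated and 182 with the inhibitor (-4.63 ± 0.16, adjusted p = 2.5e-09). It also fell in siCtrl cells, from 1138 and 1417 to 189, for this probe set. The other kept probe set fell in siCYLD cells, from 365 and 433 to 23.2 (-3.40), but read 56.8 and 75.1 without and 70.4 with the inhibitor in siCtrl cells (0.09). SCG5, which encodes a secreted chaperone of neuroendocrine cells, read 350 and 342 untreated and 24.4 with the inhibitor (-3.16 ± 0.47). In the 3 siCtrl arrays it lay between 18.3 and 48.4, the range in which the inhibitor array also fell. C1S, a protease of the complement cascade, fell by 2.73 ± 0.39, from 232 and 306 to 26.5. SUN3 fell by 2.99 ± 0.22, from 694 and 794 to 79.5. FAXDC2 fell by 3.81 ± 0.41, from 485 and 1159 to 38.7, but only 1 of its 3 kept probe sets had this direction and the mean of the 3 gave -1.06.

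Pathway ligands and their regulators went in both directions. Of 20 tested, 5 rose and 7 fell, with a median of -0.02. INHBA, whose product dimerises to activin A, a ligand that signals through SMAD2 and SMAD3 by another type I receptor, read 5858 and 5060 untreated and 14470 with the inhibitor. The knockdown level of INHBA, already far above the 368 to 583 of the siCtrl arrays, was thus higher still with the inhibitor (1.41 ± 0.14, adjusted p = 1.9e-05, limma). FST, which encodes follistatin, a secreted protein that binds and blocks activin, rose from 850 and 895 to 3736 (2.08 ± 0.17). In siCtrl cells FST rose too, from 814 and 1072 to 2583, and the siCYLD array with inhibitor was the highest of the 6. FSTL3, which encodes a related activin-binding protein, went the other way, from 440.3 and 440.2 to 163, against 128 to 137 in the 3 siCtrl arrays (-1.35 ± 0.24). The ligand gene TGFB2 rose by 1.20 ± 0.15, from 923 and 932 to 2144, and in siCtrl cells went from 636 and 595 to 1309. INHBB, the other β subunit gene of the activins, rose from 91.8 and 77.8 to 211 and stayed below the 349 to 546 of the siCtrl arrays. NODAL, a ligand of the same branch, read 19.3 and 20.01 untreated and 79.4 with the inhibitor and was not called (adjusted p = 0.183).

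Of 13 receptor and SMAD genes tested, 2 rose and 0 fell (median -0.13), where 12.2% and 10.2% of all genes did. TGFBR2, the type II receptor, read 3049 and 3047 untreated and 5747 with the inhibitor (0.91 ± 0.14). SMAD3, a transducer of the signal, read 6266 and 6412 untreated and 10400 with it (0.71 ± 0.11). Its 4 kept probe sets did not agree, 3 of them being higher, and with their mean the SMAD3 difference was 0.24 and not called. SMAD2 (-0.33, adjusted p = 0.108), the coreceptor gene ENG (-0.48, adjusted p = 0.124), ACVR2A (-0.38, adjusted p = 0.148) and ACVR1C (-0.34, adjusted p = 0.64) were not called.

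Among the inhibitors that the pathway induces against itself, 5 of 10 tested fell and 1 rose, with a median of -0.51. PMEPA1, which encodes a membrane protein that keeps SMAD2 and SMAD3 from the receptor, read 5234 and 5673 untreated and 377 with the inhibitor (-3.80 ± 0.15, adjusted p = 1.02e-08, limma). That array lay just under the 417 and 403.5 of untreated siCtrl cells. SKIL, which encodes the SMAD-binding repressor SnoN, fell from 7115 and 8751 to 2156 (-1.86 ± 0.14) and read 1898 in siCtrl cells with inhibitor. SMAD7, the inhibitory SMAD, fell from 1635 and 2129 to 652 (-1.49 ± 0.17). SMAD7 with inhibitor lay below every other array, the 3 siCtrl arrays reading 985 to 1084. The ubiquitin ligase genes SMURF2 and SMURF1, whose products act on receptors and SMADs, fell by 1.21 ± 0.11 and 0.60 ± 0.14. For SMURF1 only 3 of 5 kept probe sets were lower, and the call was lost for their mean (-0.23). NEDD4L, a ligase of the same family, rose by 0.59 ± 0.13.

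**Figure D1:**
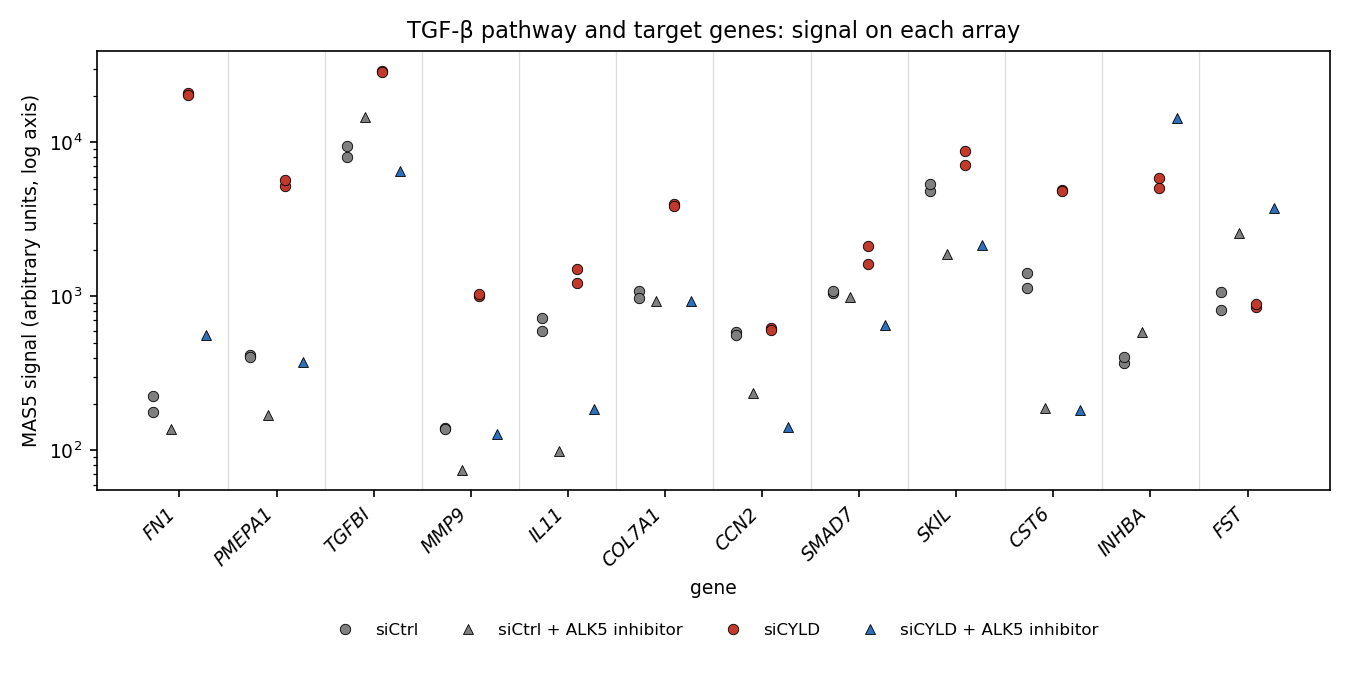
MAS5 signal on a log axis for 12 genes of the TGF-β pathway and its targets, with 1 point per array: grey circles untreated siCtrl (2), grey triangle siCtrl with ALK5 inhibitor (1), red circles untreated siCYLD (2), blue triangle siCYLD with inhibitor (1). The blue triangle lies below both red circles for 10 genes, FN1 to CST6, and above both for INHBA and FST.

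Target genes of TGF-β fell more often than they rose. Of 42 tested, 18 fell and 7 rose, against 10.2% and 12.2% of all genes, and the median was -0.27 (0.17 for the same genes in siCtrl cells). Of the 18, ANGPTL4 passed the filter only through untreated siCYLD cells, so its fall had that direction by selection. TGFBI, which encodes a secreted matrix adhesion protein, read 29200 and 28450 untreated and 6546 with the inhibitor (-2.14 ± 0.11, adjusted p = 1.66e-07, limma). In siCtrl cells TGFBI went up with the inhibitor, from 8045 and 9534 to 14620, so that the siCYLD array with inhibitor was the lowest of the 6 and the order of the siRNAs was turned round. MMP9, the gelatinase B gene, read 1004 and 1044 untreated and 128 with the inhibitor (-2.85 ± 0.22), near the 140 and 137 of untreated siCtrl cells. The cytokine gene IL11 fell from 1223 and 1510 to 186 (-2.77 ± 0.20), below the untreated siCtrl arrays (721 and 594) but above siCtrl with inhibitor (99.2). CCN2, which encodes the matricellular protein CTGF, fell from 620 and 607 to 141 (-2.0 ± 0.18), and the siCYLD array with inhibitor was again the lowest of the 6. COL7A1, the collagen of anchoring fibrils, fell from 3993 and 3859 to 928 (-2.06 ± 0.14), beside 929 in siCtrl cells with inhibitor. The 7 targets that rose were HMGA2 (1.30), BMP2 (0.99), VCAN (0.85), CDKN2B (0.83), F3 (0.76), ACTA2 (0.56) and VEGFA (0.41). HMGA2 went from 4998 and 4405 untreated to 11590 with the inhibitor, and in siCtrl cells from 1763 and 2098 to 5299.

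The matrix genes did not share one direction. Of 43 tested, 10 fell and 7 rose (median 0.08), where 10.2% and 12.2% of all genes did. Beside FN1, TGFBI and COL7A1, the fibrillar collagen gene COL5A1 fell, from 1098 and 973 to 291 (-1.77 ± 0.18), and the 3 siCtrl arrays read 337 to 429. LOX, the lysyl oxidase gene, whose product crosslinks collagen, rose from 138 and 118 to 384 (1.48 ± 0.25), and its relative LOXL2 rose from 918 and 925 to 2037 (1.13 ± 0.15). LOX also rose in siCtrl cells, from 143 and 155 to 371, whereas LOXL2 read 931 and 1081 without and 830 with the inhibitor there. THBS2, which encodes the matricellular protein thrombospondin 2, rose by 1.40 ± 0.15, from 724 and 836 to 2078. Among 21 transcription factors and structural genes of epithelial to mesenchymal transition, 3 rose and 3 fell (median -0.02). FAP, which encodes a serine protease of activated fibroblasts, fell from 150 and 118 to 9.37 (-2.55 ± 0.60, and -1.63 with an offset of 50). The integrin gene ITGA5 fell from 2270 and 2878 to 1240 (-1.03 ± 0.16). VCAN, the proteoglycan versican, rose by 0.85 ± 0.25, a call lost for the mean of its 5 probe sets and with no filter. VCAN differed by 1.90 in siCtrl cells, from 140 and 182 to 641.

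Proteases and their inhibitors split as well, with 8 of 42 higher and 11 lower (median -0.05), against 12.2% and 10.2% of all genes. The collagenase gene MMP1 read 175 and 139 untreated and 1187 with the inhibitor (2.81 ± 0.50, adjusted p = 0.00153, limma), while the 3 siCtrl arrays stood at the floor, from 1.23 to 22. MMP10, a stromelysin gene, read 103 and 79.7 untreated and 717 with the inhibitor (2.78 ± 0.47). In siCtrl cells MMP10 read 5.31 and 2.38 without and 49.9 with the inhibitor. So the 3 metalloproteinase genes among the largest differences, which all stood higher in untreated siCYLD than in untreated siCtrl cells, parted with the inhibitor: MMP9 fell, while MMP1 and MMP10 rose. TIMP3, a matrix-bound inhibitor of metalloproteinases, read 778 and 897 untreated and 6488 with the inhibitor (2.93 ± 0.13, adjusted p = 3.3e-08), level with the 6495 of siCtrl cells with inhibitor and above the 2999 and 3254 of untreated siCtrl cells. ADAMTS1, a secreted protease gene, fell from 13550 and 14060 to 4060 (-1.76 ± 0.11).

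Genes of the cell cycle rose together. Of 43 DNA replication genes tested, 36 rose and 0 fell (median 1.29), and of 59 mitosis genes 57 rose and 0 fell (median 1.61), where 12.2% of all genes rose. For all 43 and all 59 the inhibitor array lay above both untreated siCYLD arrays, which held for 43% of all genes. The same 2 lists had medians of 0.49 and 0.32 for the inhibitor in siCtrl cells. On each array the median level of the mitosis genes, relative to the mean of untreated siCtrl cells, was -1.49 and -1.57 (log2) in untreated siCYLD cells and 0.01 with the inhibitor, and in siCtrl cells with inhibitor it was 0.32. For the replication genes these medians were -0.78 and -0.80, 0.37 and 0.49.

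RRM2, a subunit of ribonucleotide reductase, which supplies deoxynucleotides, led the replication genes. It read 686 and 679 untreated and 4432 with the inhibitor (2.67 ± 0.15, adjusted p = 1.91e-07, limma), beside 1995 and 2445 in untreated siCtrl cells and 3227 in siCtrl cells with inhibitor. The siCYLD array with inhibitor was thus the highest of the 6, and untreated siCYLD cells were the lowest. TYMS, the thymidylate synthase gene, rose from 455 and 394 to 2364 (2.44 ± 0.16), between the 1265 and 1527 of untreated siCtrl cells and the 2571 of those with inhibitor. DTL, which encodes the substrate receptor of a ubiquitin ligase that acts at replicating DNA, rose from 89.0 and 80.0 to 527 (2.43 ± 0.22). CDC45 and MCM10, helicase factors needed at replication origins, rose by 1.97 ± 0.46 (a call lost with no filter) and 1.88 ± 0.26, and the transcription factor gene E2F2 by 1.61 ± 0.26. The 6 subunits of the replicative helicase, MCM2 to MCM7, which were picked out after their values had been seen, rose by 0.83 (MCM6) to 1.40 (MCM2).

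CKAP2L, a spindle protein gene, had the largest rise among the mitosis genes. It read 8.67 and 9.57 in untreated siCYLD cells, at the floor of the arrays, and 264 with the inhibitor (3.48 ± 0.36, adjusted p = 2.52e-05, limma). The 3 siCtrl arrays read 185 to 238, so untreated siCYLD cells alone lacked a clear signal. KIFC1, a mitotic kinesin gene, rose from 19.3 and 32.4 to 261 (2.74 ± 0.31), and BIRC5, which encodes survivin of the chromosomal passenger complex, from 217 and 183 to 916 (2.11 ± 0.18). TPX2, a spindle assembly factor gene, rose by 2.10 ± 0.24. CDK1, the kinase that drives entry into mitosis, rose from 224 and 174 to 877 (2.06 ± 0.19), which lay between the siCtrl arrays without (747 and 824) and with inhibitor (1180). MYBL2, which encodes the B-MYB factor of late cell cycle genes, rose by 2.06 ± 0.21.

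**Figure D2:**
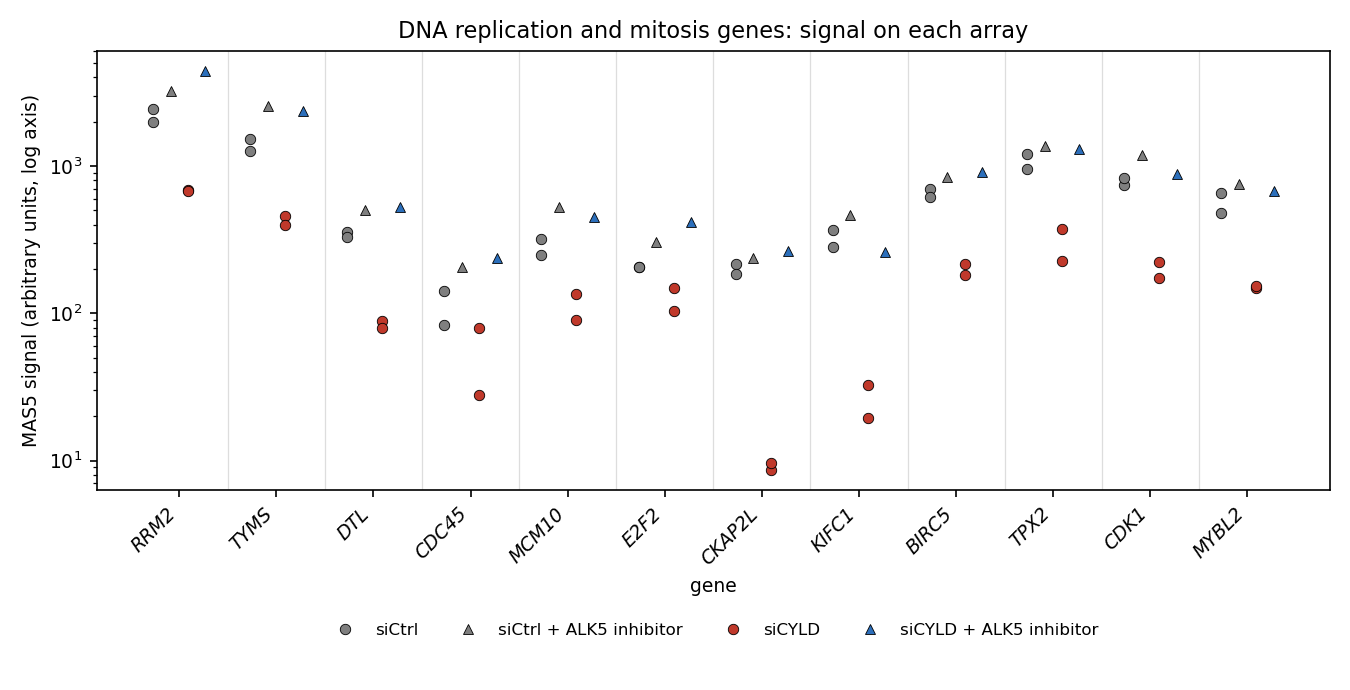
MAS5 signal on a log axis for 6 DNA replication genes (RRM2 to E2F2) and 6 mitosis genes (CKAP2L to MYBL2), with 1 point per array and the marks used for the pathway genes. The red circles of untreated siCYLD cells are the lowest points for all 12 genes, and the blue triangle of siCYLD cells with inhibitor lies above both of them for each gene.

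Promoters of 4 of these genes are shown to set the motifs beside genes that moved together. Windows are the 120 bases before the transcription start, from RefSeq on GRCh38.p14. Capitals mark the CCAAT box, the core TTTGAA of the cell cycle genes homology region, and the E2F motif TTTNGCGC. Each was searched on both strands, so that some stand in capitals as their reverse complement. In CDK1 the E2F motif and a TTTGAA lie close together without overlap. CKAP2L and CDK1 stand for mitosis, RRM2 and DTL for replication. The CDK1 window belongs to the second of its 2 start sites in the table and the RRM2 window to the first of 2. They were chosen for holding the motifs: the windows of TYMS, MYBL2 and the other start sites of CDK1 and RRM2 hold none of the 3, and that of KIFC1 holds the CCAAT box alone.
CKAP2L promoter, chr2:112764610-112764729, minus strand: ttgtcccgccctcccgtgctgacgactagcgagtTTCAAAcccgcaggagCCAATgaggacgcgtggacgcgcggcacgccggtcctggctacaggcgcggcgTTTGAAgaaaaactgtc
CDK1 promoter, chr10:60778358-60778477, plus strand: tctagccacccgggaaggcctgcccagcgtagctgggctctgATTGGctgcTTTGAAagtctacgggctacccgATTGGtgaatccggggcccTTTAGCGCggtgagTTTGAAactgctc
RRM2 promoter, chr2:10122619-10122738, plus strand: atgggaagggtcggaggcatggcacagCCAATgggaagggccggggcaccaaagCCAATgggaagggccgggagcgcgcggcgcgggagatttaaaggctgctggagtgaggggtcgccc
DTL promoter, chr1:212035628-212035747, plus strand: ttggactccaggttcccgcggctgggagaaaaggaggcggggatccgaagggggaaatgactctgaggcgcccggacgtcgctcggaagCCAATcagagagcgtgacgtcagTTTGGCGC
In the CKAP2L window TTTGAA begins 17 bases before the start and CCAAT 70 bases before it. The CDK1 window holds TTTGAA at 13 and at 69 bases and the reversed CCAAT box at 46 and at 78 bases before the start. In the 250 bases before the start, TTTGAA was found for 27 of 51 matched mitosis genes (52.9%), for 2 of 37 matched replication genes (5.41%) and for 16.1% of the 27305 genes of the table. TTTNGCGC was found for 3 of 51 mitosis genes (5.88%), 13 of 37 replication genes (35.1%) and 1.84% of all, and CCAAT for 78.4%, 59.5% and 37%. The SMAD motif CAGACA was searched as well. It was found for 5 of 31 matched TGF-β target genes (16.1%), 2 of 9 matched feedback inhibitors (22.2%) and 16.3% of all. Among mitosis and replication genes it was found for 3.92% and 18.9%. The AP-1 motif TGANTCA was found for 19.4% of the TGF-β targets, 22.2% of the feedback inhibitors and 8.06% of all. For mitosis and replication genes this was 0% and 2.7%. These are matches of letters, given as a description of the promoters.

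Of 26 cyclin-dependent kinase inhibitors and p53 targets, 8 fell and 4 rose (median -0.23), where 10.2% and 12.2% of all genes did. CDKN1A, the p21 gene, fell from 8961 and 9810 to 2935 (-1.67 ± 0.12, adjusted p = 1.18e-06, limma), below all 3 siCtrl arrays (3676 to 6304). TP53INP1, a p53-induced stress gene, fell from 1296 and 1254 to 267 (-2.19 ± 0.17), and in siCtrl cells from 1714 and 1328 to 590. CDKN2A, the p16 and p14ARF locus, rose from 3882 and 4407 to 8490 (1.03 ± 0.12) and PLK2 from 374 and 316 to 1280 (1.85 ± 0.19), and both also rose in siCtrl cells.

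Of 33 tested targets of NF-κB, the pathway that CYLD restrains, 14 rose and 4 fell with the inhibitor (median 0.43, against 0.05 for the same genes in siCtrl cells). TNFAIP3, which encodes the feedback inhibitor A20, read 1978 and 2031 untreated and 7327 with the inhibitor (1.86 ± 0.14, adjusted p = 1.71e-06, limma). In siCtrl cells TNFAIP3 read 668 and 610 without and 574 with the inhibitor, so the siCYLD array with inhibitor alone went up. PTX3, a secreted pattern recognition protein gene, read 202 and 205 untreated and 1717 with the inhibitor (2.98 ± 0.19), against 409 to 477 in the siCtrl arrays. CCL20, a chemokine gene, read 10.0 and 8.29 untreated and 313 with the inhibitor (3.71 ± 0.72), and 7.21 to 28.3 on the siCtrl arrays. CCL20 passed the filter through the inhibitor array alone, where it was high. LTB, which encodes lymphotoxin β, rose from 95.5 and 44.6 to 233 (1.60 ± 0.41). The LTB call was lost for the mean of its 2 probe sets (1.02) and with _x_at and _s_at probe sets left out (0.43). It was also lost with no filter and with no intensity trend. Other members went the opposite way: LCN2, the lipocalin 2 gene, fell from 2479 and 2240 to 828 (-1.49 ± 0.14), as it did in siCtrl cells. PTGS2, the cyclooxygenase 2 gene, fell from 201 and 158 to 48.6 (-1.59 ± 0.41), a call lost without siCYLD replicate 1.

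Further secreted factors were among the 12 largest rises. The chemokine gene CCL22 read 24.9 and 19.99 untreated and 263 with the inhibitor (2.86 ± 0.68), while the siCtrl arrays stayed between 11.5 and 12.1. Like CCL20, it passed the filter through the inhibitor array alone. EDN1, the endothelin 1 gene, read 90.6 and 49.1 untreated and 563 with the inhibitor (2.80 ± 0.39). Neither gene had a siCtrl array near its level in siCYLD cells with inhibitor, EDN1 reading 61 to 82.9 there. SHISA2 rose from 267 and 307 to 2225 (2.89 ± 0.18) and in siCtrl cells from 254 and 264 to 998.

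**Figure D3:**
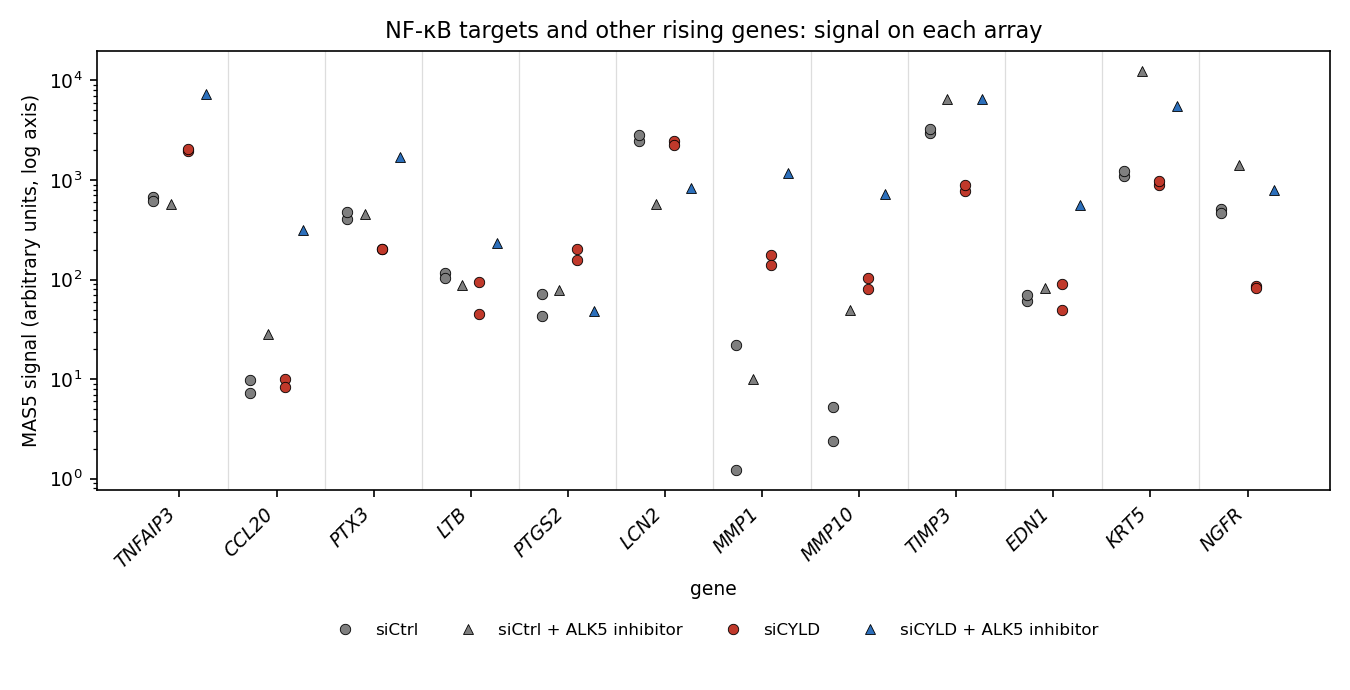
MAS5 signal on a log axis for 6 NF-κB target genes (TNFAIP3 to LCN2) and 6 other genes, with 1 point per array and the marks used for the pathway genes. The blue triangle of siCYLD cells with inhibitor stands above both red circles for 10 genes and below them for PTGS2 and LCN2, and for KRT5 and NGFR the grey triangle of siCtrl cells with inhibitor is higher still.

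Of 22 basal squamous identity genes, 5 rose and 2 fell (median 0.05). KRT5, the basal keratin gene, rose from 901 and 968 to 5595 (2.56 ± 0.14, adjusted p = 1.66e-07, limma), which was less than the 12530 of siCtrl cells with inhibitor. NGFR, the low-affinity neurotrophin receptor gene of basal cells, read 86.4 and 81.6 untreated and 794 with the inhibitor (3.02 ± 0.19), above the 506 and 465 of untreated siCtrl cells. The factor gene SOX2 rose from 63.4 and 62.6 to 140 (0.98 ± 0.30), a call lost for the mean of its 2 probe sets, while KLF5 and IRX4, transcription factor genes of epithelia, fell by 0.84 ± 0.13 and 0.91 ± 0.12. Of 24 genes of the cornified envelope and of differentiation, 10 fell and 5 rose (median -0.34). CST6 belongs here too, and CRCT1, a gene of the epidermal differentiation cluster, fell from 188 and 234 to 5.08 (-3.42 ± 0.57, and -2.24 with an offset of 50). SPRR1A, a cornified envelope precursor gene, fell from 115 and 122 to 21.9 (-1.82 ± 0.51), but its call was lost without either siCYLD replicate. GJB2, which encodes connexin 26 of gap junctions, rose from 2230 and 2193 to 6997 (1.66 ± 0.14), far above the 347 to 694 of the siCtrl arrays. The calprotectin subunit gene S100A9 rose from 13.6 and 21.8 to 155 (2.35 ± 0.46).

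Of 34 epithelial junction genes, 3 rose and 6 fell, where 12.2% and 10.2% of all genes did, and the called differences were small. The desmosome genes DSP and DSG3 fell by 0.61 ± 0.10 and 0.67 ± 0.15 and the tight junction gene CLDN4 by 0.87 ± 0.16, whereas its relative CLDN1 rose by 0.62 ± 0.10, from 21340 and 19770 to 31570.

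Growth factor signalling genes held some of the larger differences. SGK1, which encodes a kinase downstream of phosphoinositide signalling, fell from 6170 and 5668 to 1105 (-2.40 ± 0.16, adjusted p = 9.01e-07, limma) and still stood well above the 124 to 244 of the siCtrl arrays. NDRG1, whose product is a substrate of that kinase, fell from 13720 and 13640 to 5431 (-1.33 ± 0.15), within the 4190 to 6289 of the siCtrl arrays. IRS1, the insulin receptor substrate gene, rose from 242 and 191 to 1488 (2.70 ± 0.18), and IGFBP2, which encodes an IGF-binding protein, from 53.4 and 75.6 to 447 (2.54 ± 0.34). Both also rose in siCtrl cells, to 1829 and 409, while the receptor gene IGF1R fell from 9445 and 10120 to 4644 (-1.07 ± 0.12) and read 4684 to 5702 on the siCtrl arrays. In all, 2 of 19 genes of this group rose and 6 fell. Among 41 AP-1 and other immediate early genes and feedback genes of ERK, 10 rose and 9 fell (median 0.00). The early factor genes EGR1, FOS and JUNB fell by 1.85 ± 0.10, 1.76 ± 0.17 and 1.24 ± 0.13, as did DUSP1, a phosphatase gene, by 1.49 ± 0.11. DUSP6 and SPRY1, feedback inhibitors of ERK signalling, rose by 1.33 ± 0.18 and 1.92 ± 0.19. With the inhibitor in siCtrl cells EGR1, FOS, JUNB and DUSP1 differed by -2.53, -3.26, -0.92 and -1.04, and DUSP6 and SPRY1 by 1.03 and 1.83.

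BMP signalling genes, which belong to another branch of the family that uses SMAD1 and SMAD5, were split with 3 of 16 higher and 3 lower. The antagonist gene NOG rose from 82.0 and 95.8 to 263 (1.42 ± 0.35) and the ligand gene BMP2 from 886 and 880 to 1768 (0.99 ± 0.14). The ID genes did not share a direction. ID2, a direct BMP target in many cells, fell from 247 and 243 to 76.2 (-1.50 ± 0.29), and in siCtrl cells from 169 and 193 to 69.15. ID1 rose from 522.5 and 484.5 to 815 (0.68 ± 0.16), and ID3 was not called (-0.51, adjusted p = 0.0732, limma). Wnt and Notch genes had 5 of 31 higher and 7 lower. The Notch target HEY1 fell by 1.28 ± 0.14 and the Wnt receptor gene FZD10 by 1.27 ± 0.27. The Wnt antagonist genes DKK1 and RNF43 rose by 1.02 ± 0.11 and 1.24 ± 0.14. With the inhibitor in siCtrl cells HEY1, FZD10, DKK1 and RNF43 differed by -1.19, 0.69, -0.03 and 0.81. YAP and TAZ targets had 7 of 22 higher and 4 lower, among them the tissue factor gene F3, which rose from 14440 and 14450 to 24430 (0.76 ± 0.10).

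IFIT2, an interferon-induced antiviral gene, rose from 112 and 85.9 to 1205 (3.42 ± 0.21, adjusted p = 5.92e-07, limma), and IFIT3 from 456 and 508 to 1501, and of 36 interferon-stimulated genes 9 rose and 4 fell (median 0.09), where 12.2% and 10.2% of all genes did. Antioxidant genes of the NRF2 factor had 1 of 19 higher and 6 lower, with NQO1 down from 3575 and 3927 to 1391 (-1.42 ± 0.13) and HMOX1, the heme oxygenase 1 gene, from 565 and 525 to 259. Among genes of the unfolded protein and integrated stress responses 7 of 32 fell and 3 rose, with DDIT3, the CHOP gene, down from 4260 and 3956 to 1926. For IFIT2, IFIT3, NQO1, HMOX1 and DDIT3 the difference in siCtrl cells had the same sign and was called. Hypoxia and glycolysis genes had 7 of 31 higher and 4 lower: PFKFB4, a regulator of glycolysis, fell by 1.98 ± 0.21, and ADM, the adrenomedullin gene, rose by 1.43 ± 0.13. Genes of cholesterol and fatty acid synthesis had 3 of 21 higher and 2 lower, with INSIG1, a sensor of sterols, down by 0.76 ± 0.13.

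Noncoding transcripts were among the 12 largest falls. MIR181A2HG, the host transcript of a microRNA cluster, read 322 and 316 in untreated siCYLD cells and 10.8 with the inhibitor (-3.64 ± 0.28, adjusted p = 1.95e-06, limma). In siCtrl cells it read 281 and 285 without and 87.4 with the inhibitor, so both inhibitor arrays lay below all 4 untreated ones. The mature microRNAs MIR181A2 and MIR181B2 of this cluster, on chromosome 9 of GRCh38.p14 in RefSeq, are shown because they share one seed, bases 2 to 8, in capitals. The arrays measured the host transcript and not these microRNAs.
hsa-miR-181a-5p: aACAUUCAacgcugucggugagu
hsa-miR-181b-5p: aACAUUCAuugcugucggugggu
The antisense transcripts ZFHX4-AS1 and MSC-AS1 fell too. ZFHX4-AS1 read 324 and 365 untreated and 27.2 with the inhibitor (-3.06 ± 0.25), and in siCtrl cells 377 and 437 without and 90.0 with it. MSC-AS1 read 399 and 350 untreated and 38.4 with the inhibitor (-2.84 ± 0.42), while all siCtrl arrays lay between 23.1 and 42.7.

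Whether the inhibitor difference depended on the siRNA was tested as an interaction, the difference in siCYLD cells minus that in siCtrl cells. It was called for 216 of 12935 genes (1.67%), 127 positive (0.982%) and 89 negative (0.688%), and the count depended on how the spread was modelled: without the intensity trend limma called 0, with 1480 at an unadjusted p under 0.05. It was 33 with no filter, 95 for the mean of probe sets, 134 with _x_at and _s_at probe sets left out, 455 without siCYLD replicate 1, 361 without siCYLD replicate 2 and 723 with a replicate block. Both inhibitor differences rest on different arrays, and over all genes tested they had a Pearson r of 0.497 and a Spearman rho of 0.515, across genes that are not independent replicates. The strongest negative interactions were those of FN1 (-4.67, adjusted p = 4.01e-07), FAXDC2 (-3.42), SCG5 (-3.32), SLC47A2 (-3.0), TGFBI (-2.87) and MSC-AS1 (-2.83). SLC47A2, a transporter gene, read 45.5 and 58.9 in untreated siCYLD cells and 10.3 with the inhibitor, but 143 and 107 in untreated siCtrl cells and 418 with it. The strongest positive ones were those of CKAP2L (3.24, adjusted p = 0.00585), PTX3 (2.95), ESPN (2.58), EDN1 (2.52), KIFC1 (2.25) and RRM2 (2.13). ESPN, which encodes the actin-bundling protein espin, had the larger difference in siCtrl cells, where it went from 273 and 217 to 15.8, while siCYLD cells read 286 and 284 without and 204 with the inhibitor.

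Among the lists the positive interactions fell mostly on the cell cycle. Of the mitosis genes 26 of 59 had a positive interaction and 0 a negative one, of the replication genes 5 of 43 and 0, and of the NF-κB targets 6 of 33 and 0. Negative interactions were called for 8 of 42 TGF-β targets, 3 of 10 feedback inhibitors, 5 of 43 matrix genes and 4 of 19 IGF and insulin signalling genes. Of these lists the matrix genes had 2 positive interactions and the others 0. The lists overlap: FN1, TGFBI, COL7A1 and COL5A1 count both as TGF-β targets and as matrix genes. By contrast, KRT5 rose less in siCYLD than in siCtrl cells (-0.84, adjusted p = 0.0463), and FOS and EGR1 fell less (1.5 and 0.68). The TGF-β targets with a negative interaction include SNAI2 and ITGA2, which were higher with the inhibitor in siCtrl cells. SNAI2 differed by 1.12 there and by -0.02 in siCYLD cells, and ITGA2 by 0.56 and -0.66. No interaction was called for IL11 (-0.23, adjusted p = 0.769), CDH5 (0.53), IGFBP2 (-0.15), INHBA (0.83, adjusted p = 0.0617), SKIL (-0.45) or IFIT3 (0.05).

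**Figure D4:**
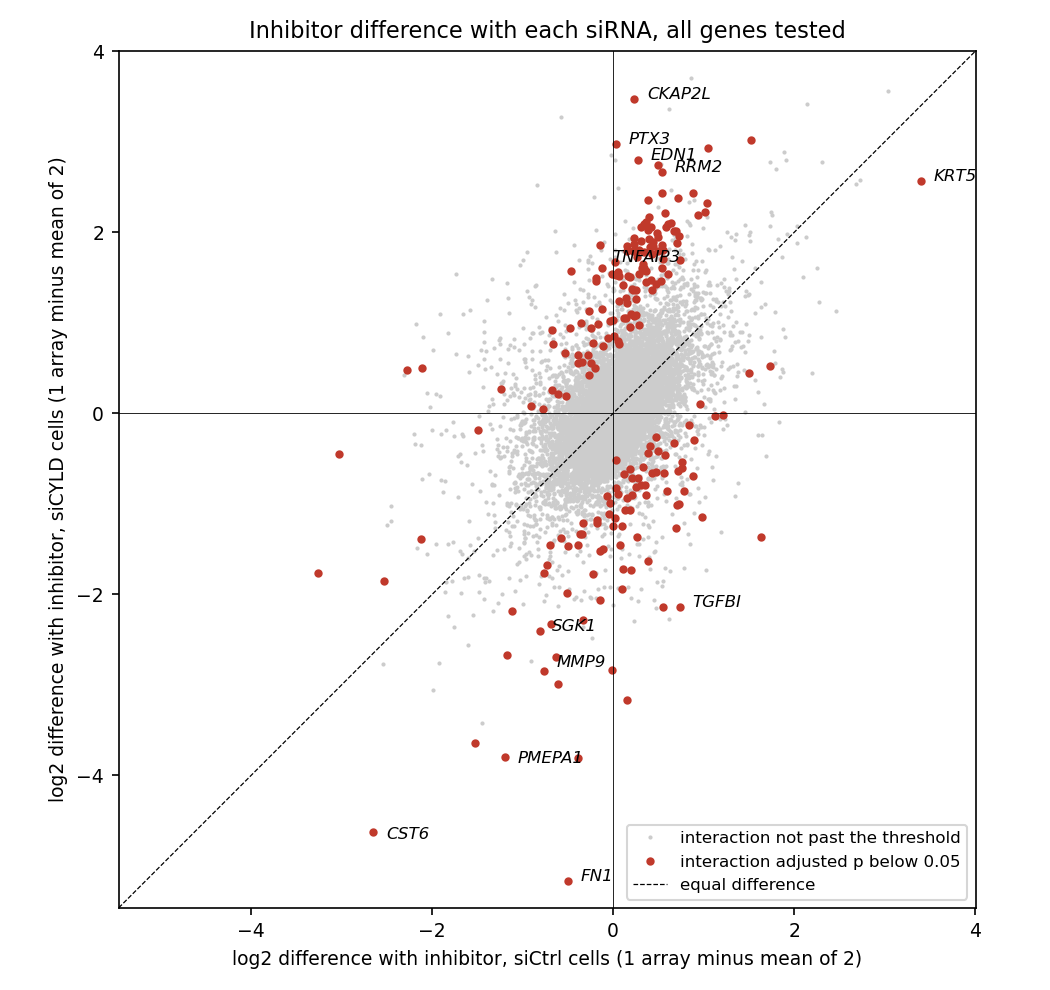
Log2 difference with ALK5 inhibitor in siCYLD cells against that in siCtrl cells, 1 point per gene for the 12935 genes tested, each difference being 1 array minus the mean of 2. Red points are the 216 genes with a called interaction, and the dashed line marks equal differences, below which FN1, PMEPA1 and TGFBI lie and above which CKAP2L, PTX3 and RRM2 lie.

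How near siCYLD cells with inhibitor came to untreated siCtrl cells was tested directly, in a comparison that holds siRNA and inhibitor together and uses the siCYLD array with inhibitor again. It called 3418 genes (26.4%), 1655 higher (12.8%) and 1763 lower (13.6%). For several genes with large falls no difference was called: PMEPA1 (-0.12, adjusted p = 0.616), MMP9 (-0.10, adjusted p = 0.774), COL7A1 (-0.14, adjusted p = 0.486), NDRG1 (0.01, adjusted p = 0.983) and IGF1R (-0.11, adjusted p = 0.535), each with a standard error that leaves room for a small one. FN1 (1.41) and SGK1 (2.19) remained above untreated siCtrl, and TGFBI (-0.42), SMAD7 (-0.69) and CST6 (-2.70) were below it. The genes furthest above it included INHBA (5.17), MMP1 (5.55), MMP10 (5.21), GJB2 (4.20), CCL20 (3.75) and TNFAIP3 (3.49). Of the mitosis genes 3 of 59 were higher and 1 lower than in untreated siCtrl cells, of the replication genes 10 of 43 were higher and 0 lower, of the NF-κB targets 26 of 33 were higher and 1 lower, and of the TGF-β targets 20 of 42 were higher and 5 lower.

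**Figure D5:**
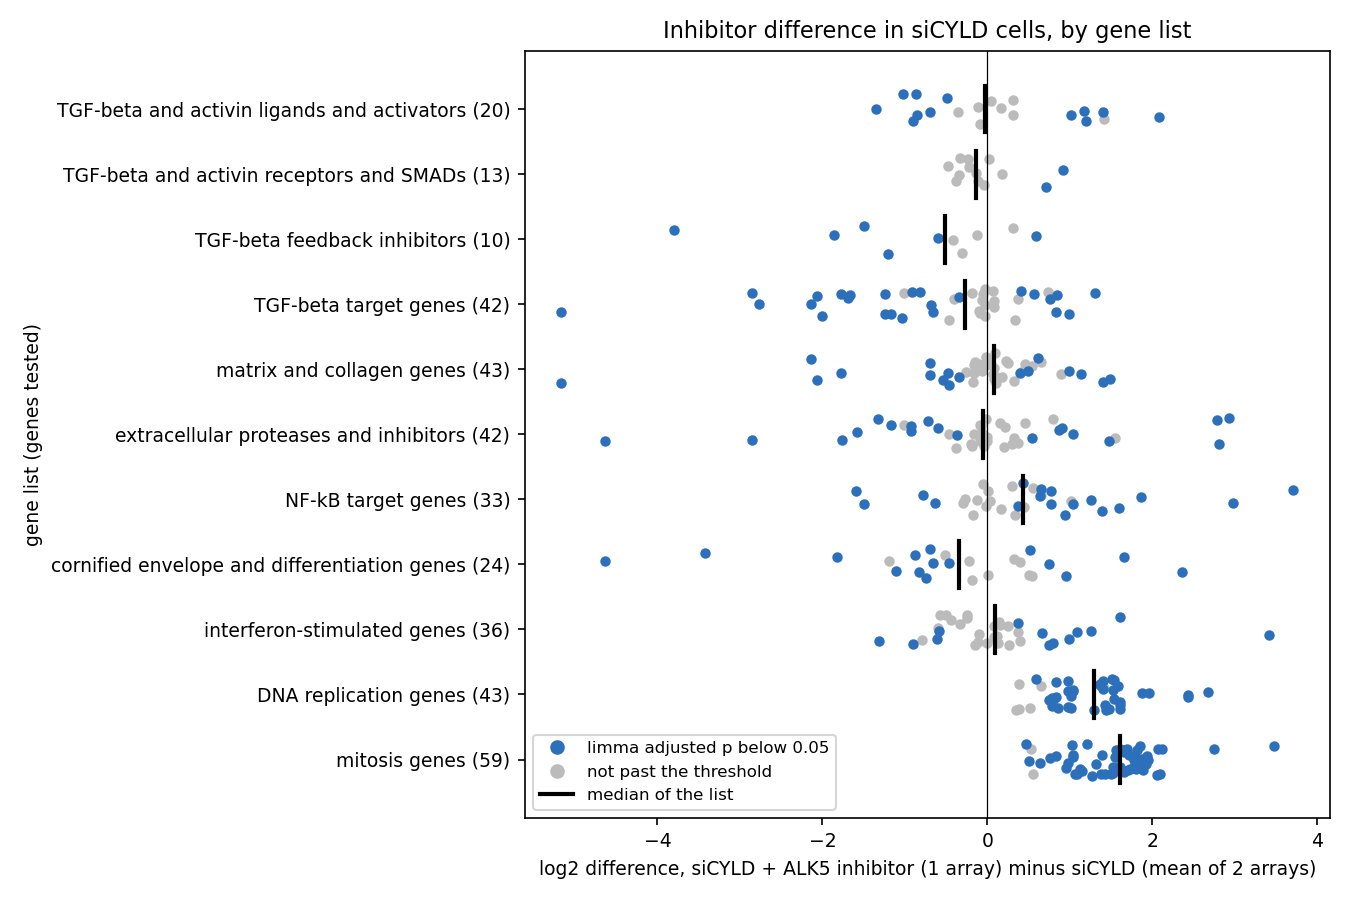
Log2 difference of siCYLD cells with ALK5 inhibitor (1 array) against untreated siCYLD cells (mean of 2 arrays) for each tested member of 11 gene lists, 1 point per gene, blue where the limma adjusted p was below 0.05, with a black bar at the median. The mitosis and replication genes lie wholly above 0, with medians of 1.61 and 1.29, and the other lists spread to both sides.

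The cell type and the quality of the RNA were checked on the same arrays. The squamous epithelial markers EPCAM (20220 to 21940 over the 6 arrays), CDH1 (11740 to 15160) and SFN (16440 to 20610) were bright, KRT14 was faint (62.3 to 148) and PKP1 was near the floor (3.75 to 85.7). The 9 such markers tested summed to 77870 and 79150 in untreated siCYLD cells and 73230 with the inhibitor. Fibroblast markers, of which 4 of 8 passed the filter, summed to 808 and 808 without and 823 with the inhibitor, and leukocyte markers (2 of 8) to 177 and 168 without and 152 with it. Endothelial markers (3 of 6) summed to 338 and 229 without and 844 with it, and of these CDH5, the VE-cadherin gene, rose, from 59.0 and 5.83 to 462 (3.56 ± 0.56, adjusted p = 0.00062, limma), as it did in siCtrl cells, from 63.0 and 52.6 to 587. VWF, which encodes von Willebrand factor, read 71.4 and 35.9 without and 169 with the inhibitor in siCYLD cells (1.45, adjusted p = 0.0631) and 25.01 and 70.1 without and 169 with it in siCtrl cells. PECAM1 read 207 and 188 without and 213 with it. As to RNA quality, ACTB had a 3'/5' ratio of 2.26 and 2.48 without and 2.38 with the inhibitor in siCYLD cells, and the median log2 signal of the poly-A spike controls was 9.90 and 9.63 against 9.82, so both measures lay between the siCYLD duplicates. On the siCtrl arrays, which enter the interaction and the comparison with untreated siCtrl cells, ACTB 3'/5' was higher (3.41 and 3.21 untreated, 3.67 with inhibitor) and the spike controls were lower (9.47, 9.47 and 9.54). GAPDH 3'/5' was 1.8 and 1.91 against 1.97. The part of these ratios, of the spike controls or of the endothelial markers in the results was not tested. Over all genes tested the siCYLD array with inhibitor correlated with the untreated siCYLD arrays at 0.959 and 0.958, with siCtrl cells with inhibitor at 0.964, and with untreated siCtrl arrays at 0.952 and 0.955, where the siCYLD duplicates correlated at 0.988.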

How the data were processed

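The authors deposited an intensity for every probe set, linear in scale. Per the submitters' processing notes it was made with MAS5. The version is not given in the sources used here. Each array had the same level: the mean signal trimmed by 2% at each end was 500.1 on all 6 arrays and medians ran from 73.4 to 84.8, so no further scaling was applied. Arrays carry no read depth, and their number limits the precision. Groups followed the titles.

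Of 54675 probe sets, 41091 had 1 gene symbol in the platform annotation, 1801 several, 11721 none, and 62 were controls. RefSeq held 41043 of their Entrez identifiers. To each signal 16.06 was added, the 20th percentile of all values, before log2 was taken. A probe set was kept if its highest group mean exceeded a signal of 79.3, the median of all values. Each of the 12935 genes tested took the values of whichever kept probe set was brightest on average. A model of 4 group means was fitted with limma 3.58.1 in R 4.3.3 (data.table at 1.17.8), with trended moderation, 2 residual and 10.9 prior degrees of freedom, and Benjamini-Hochberg adjustment, two-sided. The lone inhibitor arrays add no spread of their own. The script was tested on simulated data. Plots came from matplotlib 3.10.9 and pandas 2.3.3 in Python 3.11.15.

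Named genes were CYLD, FN1, PMEPA1, TGFBI, MMP9, RRM2, the 12 largest called rises and falls with a group mean of at least 8 (log2), up to 6 largest interactions each way, and up to 6 members of each of 28 gene lists by size of difference. The members and lists were chosen with earlier results of these data known. Alternatives were the offset, filter, scaling, probe set choice, moderation, left-out arrays, source-name groups and a replicate block.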

Additional observations from a re-analysis of the deposited data

Results flagged for a closer look

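The inhibitor difference depended on the siRNA for 45 of the 156 named genes (limma interaction, adjusted p below 0.05, siCYLD difference minus siCtrl difference, log2). Of these, 25 were negative. Among matrix, protease, noncoding and other genes these were FN1 (-4.67), FAXDC2 (-3.42), SCG5 (-3.32), SLC47A2 (-3.0), TGFBI (-2.87), MSC-AS1 (-2.83), PMEPA1 (-2.60), SUN3 (-2.38), MIR181A2HG (-2.11), MMP9 (-2.09), CST6 (-1.98), COL7A1 (-1.92), COL5A1 (-1.55) and ADAMTS1 (-0.99). Among signalling and metabolic genes they were FZD10 (-1.96), SGK1 (-1.59), PFKFB4 (-1.47), SMAD7 (-1.38), IGF1R (-1.26), NDRG1 (-0.96), CDKN1A (-0.94) and SMURF2 (-0.88). Among epithelial genes they were KRT5 (-0.84), IRX4 (-0.84) and DSP (-0.80).

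The other 20 were positive. Cell cycle genes held CKAP2L (3.24), KIFC1 (2.25), RRM2 (2.13), DTL (1.90), TPX2 (1.76), BIRC5 (1.75), MYBL2 (1.64), TYMS (1.56) and CDK1 (1.49). The rest were PTX3 (2.95), ESPN (2.58), EDN1 (2.52), TNFAIP3 (2.01), TIMP3 (1.88), FOS (1.5), NGFR (1.49), LOXL2 (1.40), DKK1 (1.05), PSMB8 (0.84) and EGR1 (0.68). For FOS and EGR1 the positive sign stands for a smaller fall, and for KRT5 the negative sign for a smaller rise. Each interaction rests on 2 lone inhibitor arrays.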

How the results depend on the processing

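Calls for the inhibitor in siCYLD cells, the interaction and siCYLD with inhibitor against untreated siCtrl numbered 2900, 216 and 3418. They were 2935, 224 and 3491 with an offset of 50, 2895, 208 and 3399 with quantile normalization and 2941, 227 and 3476 with robust moderation. With no filter they were 1819, 33 and 2317, with the mean of probe sets 2229, 95 and 2792, without _x_at and _s_at probe sets 2026, 134 and 2489, and without the intensity trend 1055, 0 and 1577. Leaving out 1 untreated array at a time gave 2457 to 3426, 294 to 455 and 3117 to 3802. The interaction count was 455 without siCYLD replicate 1 and 361 without siCYLD replicate 2. With only the 3 siCYLD arrays the first count was 3474. Fewer genes tested or fewer arrays are part of some settings; otherwise the cause was not tested.

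Groups by source name gave 0, 0 and 0 calls. There the interaction changed sign for FN1 (2.09), SGK1 (2.98), PMEPA1 (1.05), MMP9 (0.65), ADAMTS1 (0.35), NDRG1 (0.16), COL7A1 (0.10), SCG5 (0.09), KIFC1 (-1.20), NGFR (-0.74), DKK1 (-0.34), CDK1 (-0.32), TIMP3 (-0.16) and TYMS (-0.16). These groups pool FN1 signals of 225.8 with 20870, and of 177.2 with 20240. Arrays pooled in this way correlated at 0.966 and 0.964, and duplicates by title at 0.987 and 0.988. Such mixed groups cannot tell how well the results of the title groups hold.

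A replicate block on the title numbers of the untreated arrays gave 3813, 723 and 4263 calls. The duplicates' differences correlated at 0.0446 between the siRNAs. This value cannot tell whether arrays of the same number shared a culture or a day, and the inhibitor arrays carry no number. No paired analysis was possible because the inhibitor arrays have no replicate number to match.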

Other observations

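Of 4435 probe sets without a gene symbol above the filter, 132 were at least 2-fold higher and 160 at least 2-fold lower in siCYLD cells with inhibitor than in untreated siCYLD cells. They entered no test.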
